A study of Mus musculus with 16 samples.

Results

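The differentially methylated (DM) sites of mouse liver that lie in the first or in an internal exon of their transcript were examined. A site was counted when its midpoint fell in any exon but the last of the longest protein-coding GENCODE M21 transcript of the gene it is listed under. The authors' deposited table lists 622 DM sites, of which 570 could be placed this way, and 218 of them lay in a first exon (59 sites) or an internal exon (159 sites), under 213 gene names. The other 352 placed sites lay in last exons.

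The table comes from m6A-seq of livers of 4 wild type mice (Albumin-Cre with Mettl14+/+) and 4 knockout mice (Albumin-Cre with Mettl14 flox/flox), with 1 INPUT and 1 IP library per mouse, 16 libraries in all. All 8 mice carried the Cre transgene and had been fed a 42% high-fat diet for 3 months. Cre was driven by the albumin promoter, which is active in hepatocytes and not in most other cells of the liver. The table gives each site a logFC, the natural log coefficient of the genotype, and a p value, and no value per mouse. Depth, the spread between mice and the precision of a single logFC are therefore unknown here, the targeted gene could not be checked (the table lists 0 sites in Mettl14), and fewer cells of a type cannot be told apart from less methylated RNA per cell. The reference genotype is not stated in the sources used here, so the sign of the logFC is given and not hyper- or hypomethylation.

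In mRNA, m6A is deposited on the nascent transcript by a complex of METTL3, METTL14, WTAP and accessory proteins, mostly at the consensus RRACH (R is A or G, H is A, C or T). Apart from the region of the stop codon, m6A is known to be concentrated in unusually long internal exons. Exon junction complexes, which are loaded a short distance upstream of each junction during splicing, are known to keep the RNA around them from being methylated, so that a short internal exon, all of which is close to a junction, carries little m6A.

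The sites themselves are windows of about 50 nt, and 217 of the 218 were no longer than that. A few are printed here on the transcript strand of GRCm38, the assembly that mm10 names, with every RRACH match in capitals. The first set are sites with a negative logFC in exons of more than 400 nt, shown because most negative sites were of this kind.
Ythdf1 (chr2:180910782-180910831, minus strand): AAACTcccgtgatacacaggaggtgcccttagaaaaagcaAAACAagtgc
Ythdf2 (chr4:132204437-132204486, minus strand): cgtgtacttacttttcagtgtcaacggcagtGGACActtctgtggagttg
Apob (chr12:8007799-8007848, plus strand): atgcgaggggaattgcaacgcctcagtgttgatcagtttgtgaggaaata
Apob (chr12:8010740-8010789, plus strand): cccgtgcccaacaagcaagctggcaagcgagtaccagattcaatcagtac
Apob (chr12:8008298-8008347, plus strand): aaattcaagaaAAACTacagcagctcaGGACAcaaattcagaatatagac
Zfp644 (chr5:106638397-106638446, minus strand): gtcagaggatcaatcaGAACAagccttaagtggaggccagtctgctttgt
The next set are sites with a positive logFC in some of the longest exons.
Irs2 (chr8:11005459-11005508, minus strand): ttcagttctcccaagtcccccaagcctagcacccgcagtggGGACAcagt
Srrm2 (chr17:23815276-23815325, plus strand): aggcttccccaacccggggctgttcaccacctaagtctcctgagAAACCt
Ankrd11 (chr8:122892125-122892174, minus strand): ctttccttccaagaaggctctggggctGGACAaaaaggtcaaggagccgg
Zeb2 (chr2:44997418-44997467, minus strand): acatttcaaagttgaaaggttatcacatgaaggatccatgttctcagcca
The last set are sites in exons of at most 400 nt, of which the first 3 have a positive and the last 2 a negative logFC. The sites in Ppp1r12c, Msn and Rrbp1 continue across a splice junction, after their first 10, 49 and 48 bases, and are printed with the intron removed.
Ppp1r12c (chr7:4483362-4483483, minus strand): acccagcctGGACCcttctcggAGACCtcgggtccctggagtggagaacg
Msn (chrX:96160203-96163367, plus strand): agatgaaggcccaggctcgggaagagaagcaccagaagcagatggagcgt
Rbm25 (chr12:83668456-83668505, plus strand): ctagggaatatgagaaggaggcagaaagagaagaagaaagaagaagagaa
Tab2 (chr10:7911117-7911166, minus strand): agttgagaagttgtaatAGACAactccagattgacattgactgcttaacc
Rrbp1 (chr2:143964899-143967487, minus strand): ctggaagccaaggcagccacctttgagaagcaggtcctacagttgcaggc
All these sites lie in coding sequence, and each set has sites with and without a match.

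The sites lay in long exons more often than positions of the same transcripts did. The exon that held the site ranged from 37 to 7467 nt, with a median of 510.5 nt (quartiles 174.2 and 1020 nt). Exons of more than 400 nt held 124 of the 218 sites, or 56.9% (95% Wilson interval 50.2% to 63.3%). Over all positions in the first and internal exons of the same transcripts, 36.5% lie in such exons. This share of positions is an exact count in which each site's transcript enters once and serves as a description, since the bins without a reported change were not used here. Of the 143 sites whose transcript has a long first or internal exon at all, 124 (86.7%, 95% Wilson interval 80.2% to 91.3%) lay in a long one, against 55.7% of positions. The longest first or internal exon of the transcript held 133 of the 218 sites, or 61.0%, against 40.5% of positions. Among the 114 sites at positions that all coding transcripts of the gene contain, 45.6% lay in long exons. Of all first and internal exon positions of their transcripts, shared or not, 31.9% do, so these 2 shares cover unlike sets. Of the 104 sites at positions not in all coding transcripts, 69.2% lay in long exons. By length class, exons of 400 to 1000 nt held 30.7% of sites and 19.3% of positions, while exons of 100 to 200 nt, the usual size of an internal exon, held 22.0% of sites and 34.7% of positions. No site lay in an exon between 382 nt (Clec1b, logFC -1.14) and 407 nt (Lonp1, logFC 1.33), so the limit of 400 nt divided no dense group of exons. Intervals over sites cover counting error only.

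**Figure D1:**
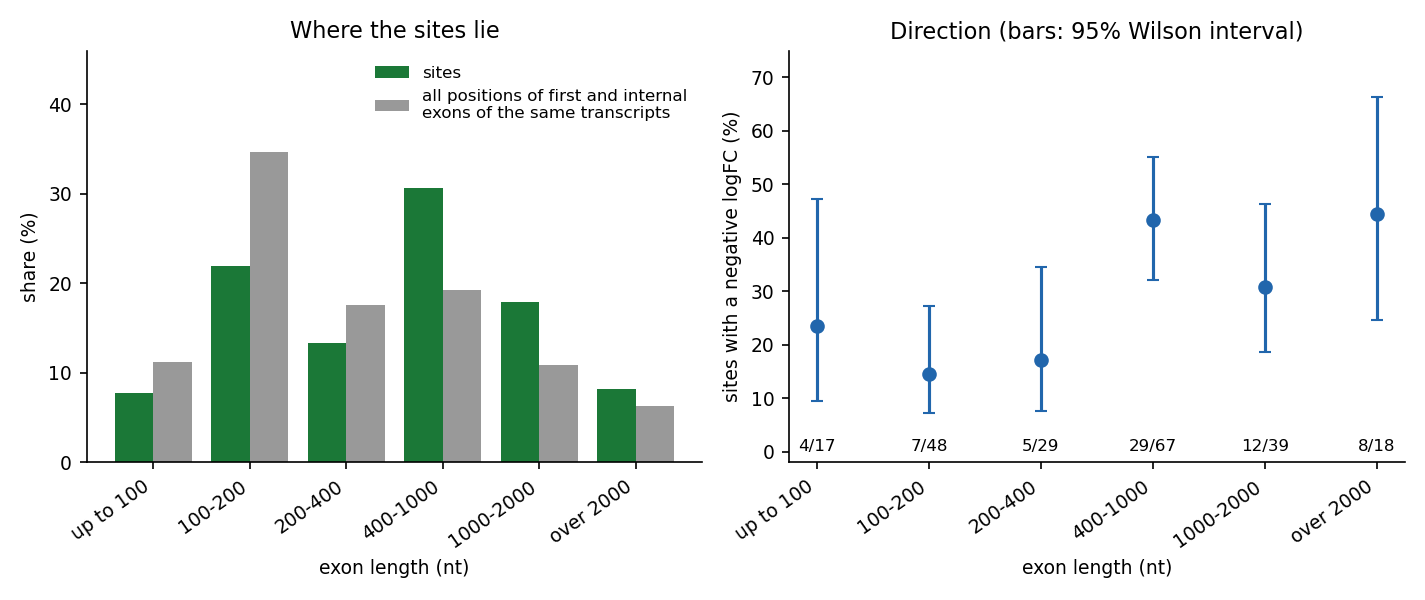
Left, the share of the 218 sites and of all positions of the first and internal exons of the same transcripts, by exon length in nt. Right, the share of sites with a negative logFC in each length class, with 95% Wilson intervals and the counts below. Sites exceed positions in each class above 400 nt and fall short of them in each class below, and the negative share is 14.6% at 100 to 200 nt and 43.3% at 400 to 1000 nt.

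The direction of the change differed between long and short exons. A negative logFC was found in 49 of 124 sites in long exons, or 39.5% (Wilson 31.4% to 48.3%). In short exons it was found in 16 of 94 sites, or 17% (Wilson 10.8% to 25.9%). Among all 622 listed sites 33.6% are negative, so the long exons lay somewhat above and the short exons well below that share. The difference of 22.5 percentage points (95% Newcombe interval 10.5 to 33.3) passed the test (two-sided Fisher exact test over sites, p = 3.23e-04, adjusted p = 0.00291 by Benjamini-Hochberg over 9 comparisons). Negative sites lay in exons with a median length of 780 nt (quartiles 408 and 1375 nt) and positive sites in exons with a median of 369 nt (quartiles 164 and 970 nt). Within internal exons alone, 46.7% of 90 sites in long exons and 17.4% of 69 sites in short exons were negative (two-sided Fisher exact test, p = 1.03e-04).

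The difference went with the sites of smaller change. With an absolute logFC under 2, 44 of 53 sites in long exons were negative (83.0%), against 13 of 32 in short exons (40.6%; two-sided Fisher exact test, p = 1e-04). With an absolute logFC above 2, an alternative added after seeing the data, the shares were 7.04% of 71 sites and 4.84% of 62 sites (two-sided Fisher exact test, p = 0.723). With an absolute logFC of at least 1, they were 21.6% of 88 sites and 16.9% of 77 sites (p = 0.555, two-sided Fisher exact test). With long exons set at more than 1000 nt, the difference did not pass either, at 35.1% against 28.0% (two-sided Fisher exact test, p = 0.317).

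**Figure D2:**
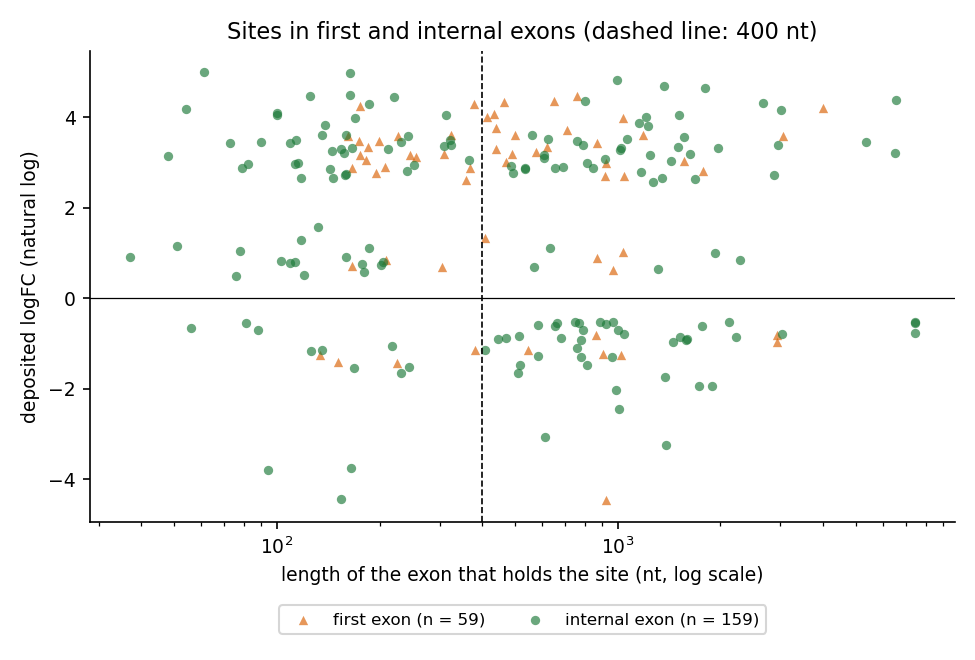
The deposited logFC (natural log) of each of the 218 sites against the length of the exon that holds it (nt, log scale), with triangles for first and circles for internal exons and a dashed line at 400 nt. Most negative sites lie to the right of the line and between -2 and -0.5, while sites with a logFC above 2 lie on both sides of it.

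The transcripts of negative sites more often had a long exon to begin with, which was counted and not tested. Of the 65 negative sites, 54 (83.1%, 95% Wilson interval 72.2% to 90.3%) lay on a transcript with a long first or internal exon, and of the 153 positive sites 89 did (58.2%, 95% Wilson interval 50.2% to 65.7%). On those transcripts, the site lay in a long exon in 49 of 54 negative cases (90.7%) and in 75 of 89 positive cases (84.3%), against 54.9% and 56.1% of positions. Long exons thus held more than their share of positions for either sign.
Of the 28 positive sites with a logFC under 2, 9 lay in long exons (32.1%, 95% Wilson interval 17.9% to 50.7%), and their transcripts have 18.8% of their first and internal exon positions in long exons.

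The size of the change did not separate the exon classes. An absolute logFC above 2, that is a ratio between the genotypes above 7.39, was found in 71 of 124 sites in long exons (57.3%, 95% Wilson interval 48.5% to 65.6%) and in 62 of 94 in short exons (66.0%, 95% Wilson interval 55.9% to 74.7%), beside 56.6% of all listed sites. The difference of -8.70 percentage points (95% Newcombe interval -21.1 to 4.36) did not pass (two-sided Fisher exact test, p = 0.209, adjusted p = 0.314), which does not show that the classes are alike. Of the 218 sites, 125 had a logFC above 2 and 8 a logFC under -2. The 8 negative ones are in Znrf1, Rrbp1, Tab2, Cdk11b, Brd1, Ofd1, Rictor and Aff1, and 5 of them lie in long exons.

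Sites in long exons lay away from the junctions. The distance from the midpoint of a site to the nearest junction had a median of 293.5 nt in long exons (quartiles 177.2 and 468.5 nt) and of 39.5 nt in short exons (quartiles 22.0 and 70.0 nt). In long exons, 8 of 124 sites lay less than 100 nt from a junction, or 6.45% (95% Wilson interval 3.31% to 12.2%), whereas 19.1% of the long exon positions of their transcripts do. In short exons, 83 of 94 sites did (88.3%, 95% Wilson interval 80.2% to 93.3%), against 87.1% of the short exon positions of their transcripts. Most positions of a short exon are that close to a junction, so a shortfall could hardly appear there. The 8 sites near the ends of long exons are in R3hcc1, Fam192a, Fut11, Cxxc5, Asb7, 1700021K19Rik, Pias1 and Atp5d, and that of Pias1 alone is negative (logFC -0.90). Of the 90 sites in long internal exons, 45 were nearer to the upstream and 45 to the downstream junction.

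Negative sites lay near a junction less often than positive sites. Less than 100 nt from a junction were 16 of 65 negative sites, or 24.6% (95% Wilson interval 15.8% to 36.3%), and 75 of 153 positive sites, or 49.0% (95% Wilson interval 41.2% to 56.9%). The difference, -24.4 percentage points (95% Newcombe interval -36.2 to -10.4), passed the two-sided Fisher exact test (p = 9.13e-04, adjusted p = 0.00411). In their own transcripts, 56.1% and 65.1% of first and internal exon positions are that close. At 200 to 399 nt from a junction, a wider class than those nearer, lay 22 of 65 negative and 28 of 153 positive sites. Exon length moved with the difference between the signs: within long exons, 1 of 49 negative sites (2.04%) and 7 of 75 positive sites (9.33%) lay less than 100 nt from a junction (two-sided Fisher exact test, p = 0.145). Within short exons the order was the other way, with 15 of 16 negative sites (93.8%) and 68 of 78 positive sites (87.2%), which was not tested. Over both exon classes, the difference did not pass with a distance of 50 nt (18.5% against 30.7%, two-sided Fisher exact test, p = 0.0684) or with an absolute logFC of at least 1 (37.5% against 45.9%, two-sided Fisher exact test, p = 0.433).

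**Figure D3:**
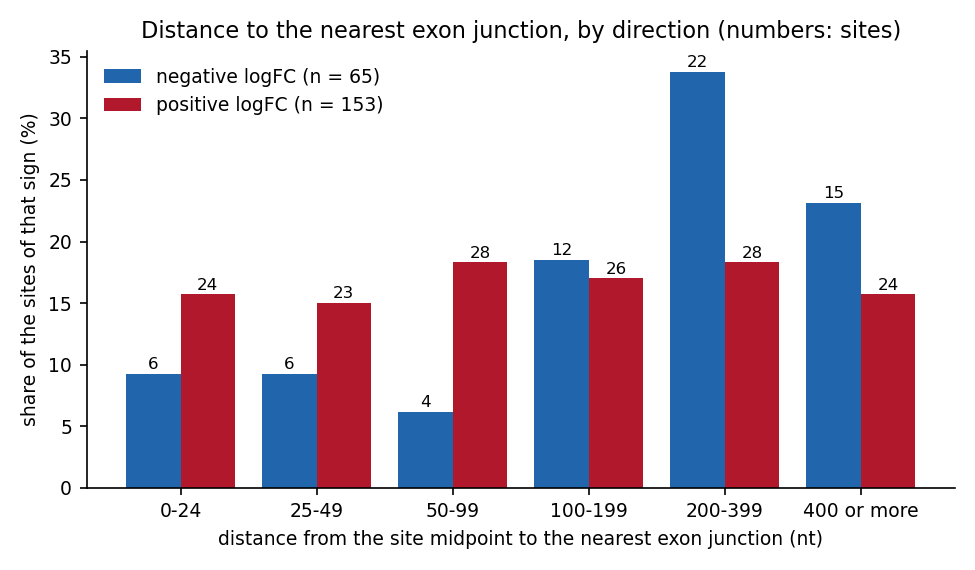
For each sign, with 65 negative and 153 positive sites, the share in each class of distance (nt) from the site midpoint to the nearest exon junction, with the number of sites above each bar. The classes differ in width, so the bars compare the signs within a class and do not show a preferred distance. At 200 to 399 nt lie 33.8% of negative and 18.3% of positive sites. Under 25 nt lie 9.23% and 15.7%, and at 400 nt or more 23.1% and 15.7%.

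A difference in motif content between long and short exons was not detected by the test. RRACH was searched on the transcript strand, overlapping matches included, and at least 1 match was found in 121 of the 218 sites (55.5%, 95% Wilson interval 48.9% to 61.9%). Of all windows of 50 nt with their midpoint in the first and internal exons of these transcripts, 51.4% hold a match. Long exons had a match in 70 of 124 sites (56.5%, 95% Wilson interval 47.7% to 64.9%) and short exons in 51 of 94 (54.3%, 95% Wilson interval 44.2% to 64.0%). The difference, 2.20 percentage points (95% Newcombe interval -10.9 to 15.3), did not pass the two-sided Fisher exact test (p = 0.784, adjusted p = 0.882). With long exons set at more than 1000 nt it was 12.7 percentage points (64.9% against 52.2%, two-sided Fisher exact test, p = 0.121), and at 200 nt 6.75. It changed sign among the 115 sites that belong to the 311 listed sites with the smallest p values, and among those with an absolute logFC under 2.

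By direction, RRACH was found in 43 of 65 negative sites, or 66.2% (Wilson 54.0% to 76.5%). Among positive sites it was found in 78 of 153, or 51.0% (Wilson 43.1% to 58.8%). The difference of 15.2 percentage points did not pass (two-sided Fisher exact test, p = 0.0524, adjusted p = 0.118). It passed unadjusted under 7 of 14 alternatives. Among them was the removal of sites with a whole-number ratio, chosen after seeing the data (69.4% against 45.2%, two-sided Fisher exact test, p = 0.00324). That removal kept 70 sites with an absolute logFC above 2. In all windows of the same exons the shares were 55.7% for transcripts of negative and 49.6% for those of positive sites, and the median GC content of the sites was 48.0% and 58.0%. The part of base composition in the difference was not tested. At least 2 matches were present in 18 negative sites (27.7%) and in 16 positive sites (10.5%). The highest number, 4 matches, was found in the negative sites of Heca (logFC -0.78) and Aff1 (logFC -2.03) and in the positive site of Asb7 (logFC 3.16), all named after their values were seen. The site of Heca is 100 nt long, so it had more room for a match than the others. All 12 words of the consensus occurred. The most frequent were GGACA, in 11 negative and 12 positive sites, and GGACC, in 4 negative and 19 positive sites.

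Sites of first exons held the core motif GGAC, the alternative to the full consensus, more often than those of internal exons. It was found in 28 of 59 sites of first exons, or 47.5% (Wilson 35.3% to 60.0%). In internal exons it was found in 37 of 159 sites, or 23.3% (Wilson 17.4% to 30.4%; two-sided Fisher exact test, p = 8.08e-04, not among the 9 adjusted comparisons). In all windows of their own exons the shares were 30.1% and 23.4%. With the whole consensus RRACH the shares were 55.9% and 55.3% (two-sided Fisher exact test, p = 1.0, adjusted p = 1.0). The sites of first exons had a median GC content of 66.0%, those of internal exons 54.0%, and the part of this in the difference was not tested. The 28 sites with GGAC include those of Irs2, Snx33 and R3hcc1.

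**Figure D4:**
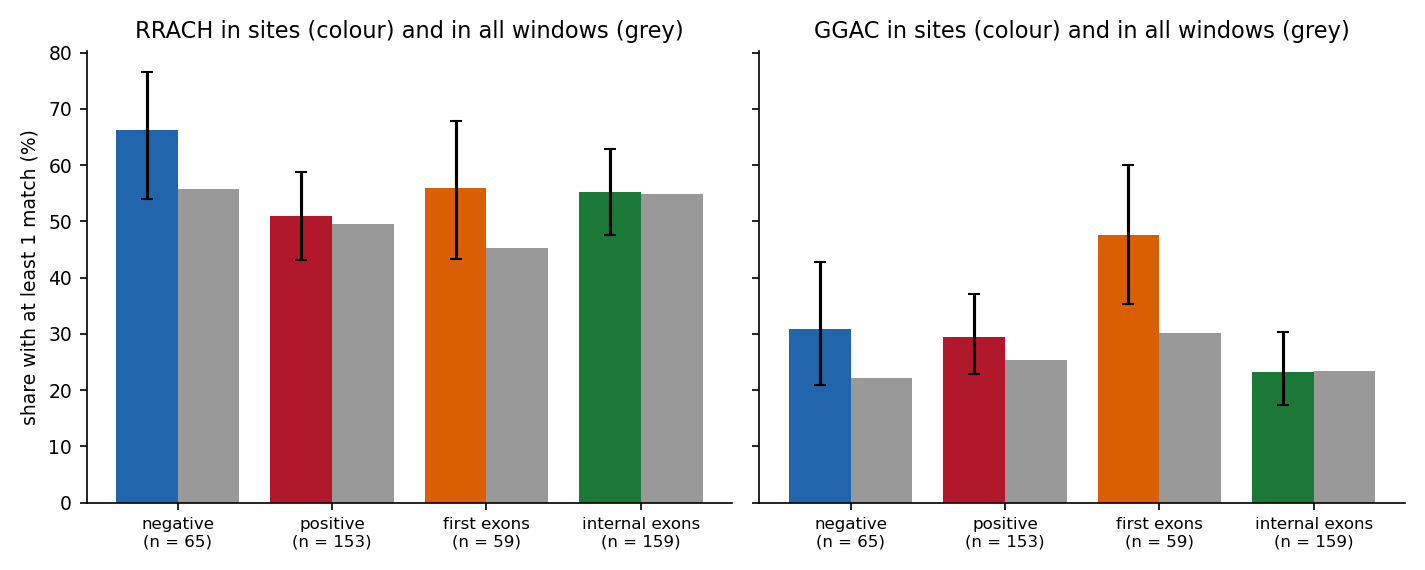
The share of sites with at least 1 match (coloured bars, 95% Wilson intervals) for RRACH (left) and GGAC (right), by direction and by exon, beside the share of all 50 nt windows of the same exons (grey). For GGAC, first exons stand at 47.5% against 30.1% of their windows, and internal exons at 23.3% against 23.4%.

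Of the 59 sites in first exons, 25 lay in the 5′UTR and 34 in coding sequence, and 25 had their midpoint less than 100 nt from the start codon. The median exon length was 440 nt for first and 562 nt for internal exons. A negative logFC was found in 11 of 59 sites in first exons (18.6%, 95% Wilson interval 10.7% to 30.4%) and in 54 of 159 in internal exons (34.0%, 95% Wilson interval 27.1% to 41.6%). The difference of -15.3 percentage points passed before and not after adjustment (two-sided Fisher exact test, p = 0.0307, adjusted p = 0.0921). Within coding sequence it was 23.5% against 35.1% (two-sided Fisher exact test, p = 0.230).

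The longest exons with a site show how the directions are spread. Apob, the gene of the apolipoprotein that very low density lipoproteins are built on, has the longest, exon 26 of 29 with 7467 nt. Its 3 sites lie 2089, 2588 and 5030 nt from the 5′ end of the exon, and their deposited logFC is -0.76, -0.52 and -0.54 in that order. The second longest is exon 11 of 15 of Srrm2, a spliceosome component rich in serine and arginine repeats, with 6569 nt. Its site, 180 nt into the exon, has a logFC of 4.39 (p = 4.98e-09 in the authors' deposited table). In Ankrd11, a chromatin regulator, the exon has 6518 nt and the logFC is 3.22. In Macf1, a protein that links microtubules to actin, exon 36 of 98 has 5331 nt and the logFC is 3.45. The site of the zinc finger gene Zfp644 lies 215 nt into an exon of 3026 nt, with a logFC of -0.79. Among these genes, the signs were thus mixed, with values under 1 in size on the negative side and above 3 on the positive side.

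The longest first exon with a site is that of Irs2, an adaptor of the insulin receptor, of 3989 nt. Its site has the smallest p value of the 218, 6.89e-10 in the authors' deposited table, with a logFC of 4.2, and lies 1013 nt from the only junction of the transcript. The first exon of Snx33, a sorting nexin of the endocytic pathway, has 3059 nt and a site with a logFC of 3.58. That of Vcpip1, a deubiquitinating enzyme that works with the ATPase VCP, has 2933 nt and 2 sites, both negative, with logFC values of -0.96 and -0.81. The exons of Apob and Vcpip1 were the only ones with 2 or more of the sites. Rexo1 and Chpf2 have 2 sites each in different exons. In Rexo1 the signs were opposite, with a logFC of 4.50 in an exon of 164 nt and of -1.93 in an exon of 1733 nt, while both sites of Chpf2 were positive (3.04 and 0.85). These 2 genes were named after their values were seen.

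**Figure D5:**
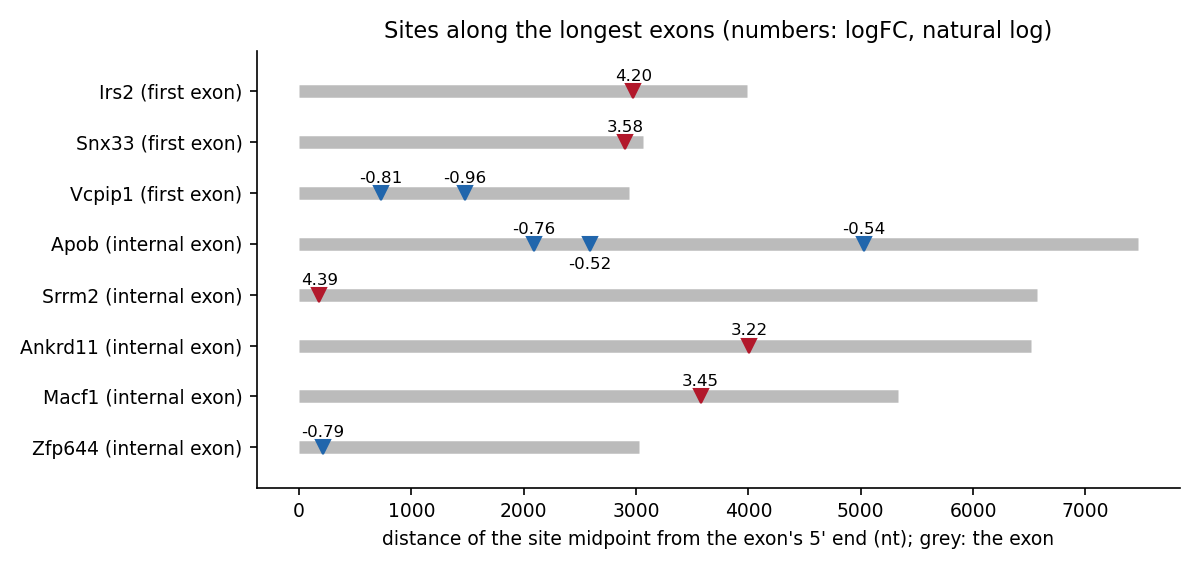
Positions of the sites (triangles, blue for a negative and red for a positive logFC, with the deposited natural log value) along the 3 longest first and the 5 longest internal exons that hold a site, as the distance in nt of the site midpoint from the 5′ end of the exon. Apob holds 3 negative sites and Vcpip1 2, and the other exons hold 1 site each.

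The most positive values in the authors' deposited table belong to Ppp1r12c (5.0), a regulatory subunit of myosin phosphatase, and Msn (4.98), the actin linker moesin, both in short exons, of 61 and 164 nt. Next are Chst15 (4.82), a sulfotransferase of chondroitin sulfate, in an exon of 997 nt, the tankyrase-binding protein gene Tnks1bp1 (4.69), in one of 1362 nt, and Klhl25 (4.66), an adaptor of a ubiquitin ligase, in one of 1805 nt. The most negative are Znrf1 (-4.47), a ubiquitin ligase, in a first exon of 925 nt, and Rrbp1 (-4.45), a ribosome-binding protein of the endoplasmic reticulum, in an exon of 154 nt. They are followed by Tab2 (-3.80), an adaptor of the kinase TAK1, in 94 nt, the kinase gene Cdk11b (-3.76), in 165 nt, and Brd1 (-3.25), a bromodomain protein, in 1381 nt. The most extreme values of either sign were thus found in both exon classes. The sites in Msn and Tab2 have another match in the genome, so that reads from elsewhere could have been counted there. Such matches were counted at 16 of the 218 sites, which is an upper limit. For sites across a junction, the count did not leave out the site's own place. A site such as that of Rrbp1, with 48 of its bases in 1 exon block, matches there. At 63 of the 133 sites with an absolute logFC above 2, the ratio between the genotypes is a whole number within 0.01, such as 148 for Ppp1r12c and 87.0 for Znrf1. In long exons lie 35 of these 63 (55.6%), beside 56.9% of all 218 sites. Many of the other 70 are close to simple fractions, such as 54.50 for Setd1b, 44.50 for Tab2, 29.75 for Kmt2d, 28.33 for Hcfc1 and 25.67 for Brd1. The read counts behind these ratios are unknown here. Whether a genotype had almost no reads at such sites was not tested, so the size of these large logFC values is uncertain.

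After Irs2, the smallest deposited p values were those of Paox (1.62e-09), an enzyme of polyamine breakdown, R3hcc1 (1.66e-09), Srrm2 (4.98e-09) and the transcription factor gene Zeb2 (8.60e-09). All 5 are positive, and Paox alone lies in a short exon, of 226 nt. Of the 115 sites that belong to the 311 listed sites with the smallest p values, 101 are positive and 60.0% lie in long exons.

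Sites across a splice junction, with more than 1 exon block, numbered 28, all of them in short exons by their midpoint. Of these, 5 (17.9%) were negative, beside 17.0% of all 94 sites in short exons. The exons of the 28 sites had a median length of 125 nt. The 2 with the smallest p values are those of Paox, with 49 of its bases before the junction, and Msn. In Ppp1r12c, the match GGACC lies across the junction, with its first base before it.

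By function, the genes with a site in these exons were counted in several lists. The share over all coding genes was not counted, so these counts have no reference. Of 23 genes of the m6A machinery, 5 have a listed site and 3 have one in these exons, the cytoplasmic readers Ythdf1, Ythdf2 and Ythdf3. Each of the 3 lies in exon 4 of 5, an exon of 1521, 1584 and 1599 nt that holds much of the coding sequence, and the deposited logFC is -0.86, -0.92 and -0.90. Of the 218 sites, 49 are likewise negative and in long exons. The site of Ythdf2 holds GGACA, and that of Ythdf1 holds AAACT and AAACA.
Of 34 genes of the exon junction complex and splicing, 4 have such a site. These are Srrm2, the splicing regulator Rbm25 (logFC 3.46, exon of 90 nt), the nonsense-mediated decay factor Upf2 (logFC -1.29, exon of 780 nt) and Rbm8a (logFC 1.05, exon of 78 nt), a core subunit of the exon junction complex whose site crosses a junction. Of 44 listed chromatin regulators, 7 have a listed site and 4 have one in these exons. The sites of these 4 are positive and in long exons, as 75 of the 218 sites are. They are the histone H3 lysine methyltransferase genes Setd1b (4.0) and Kmt2d (3.39), the corepressor gene Ncor1 (2.76) and Hcfc1 (3.34). Beside them, 125 of the 218 sites have a logFC above 2. The lists are short, and chromatin genes outside this one go both ways. Brd1 (-3.25) and Kat2a in an exon of 115 nt do not share both properties. Ankrd11 (3.22, exon of 6518 nt) and Atrx (4.16, exon of 3014 nt) do. Rbm8a, Hcfc1, Kat2a and Atrx were named after their values were seen.
Of 45 genes listed for lipoprotein and lipid metabolism Apob, of 33 for insulin and glucose Irs2, and of 30 for ubiquitin ligases Znrf1 have a site in these exons. Ubiquitin ligase genes outside the list have sites too, among them Rnf185 (4.44), Ube3a (3.16), Ube3b (2.88) and Trim34b (-1.65), named after their values were seen. The lists of 22 genome stability genes and of 26 nuclear receptors and liver transcription factors have none in these exons. Over all 218 sites the median logFC is 2.83. Of the markers of liver cell types, the Kupffer cell and macrophage marker C1qb has a site (logFC 0.73, exon of 202 nt), and those of hepatocytes, endothelial cells, stellate cells and cholangiocytes have none. The table holds no expression values, so the labelled tissue could not be checked against its markers.

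Compared with the 352 sites in last exons, neither direction nor motif content passed the test. A negative logFC was found in 65 of 218 sites (29.8%, 95% Wilson interval 24.1% to 36.2%) against 120 of 352 in last exons (34.1%, 95% Wilson interval 29.3% to 39.2%; two-sided Fisher exact test, p = 0.312, adjusted p = 0.401). RRACH was found in 55.5% against 62.5% (95% Wilson interval 57.3% to 67.4%; two-sided Fisher exact test, p = 0.114, adjusted p = 0.204). With the broader consensus DRACH (D is A, G or T) the shares were 62.4% and 72.2% (two-sided Fisher exact test, p = 0.0161), and with GGAC they turned round, at 29.8% and 23.9% (p = 0.118, two-sided Fisher exact test).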

How the data were processed

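The libraries were 16, INPUT and IP from livers of 4 wild type and 4 Mettl14 knockout mice. Per the labels, reads were mapped to mm10 with HISAT2, whose version is not given. The authors counted IP reads in bins on concatenated exons, normalized them, divided them by a gene-wise INPUT factor and tested the genotype with RADAR. In the table the authors deposited, logFC is a genotype coefficient on the natural log scale. The deposited p-values are, for sites of a single bin, unadjusted p-values of the Wald test. The table holds the authors' own comparison and nothing else, and its logFC and p-values were used here as properties of the listed sites. It has no column per library, so depth per sample is unknown here.

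Site blocks, counted from 1, were joined and the midpoint was placed on the longest protein-coding GENCODE M21 transcript of the named gene. A gene was found for 585 of 622 sites through its current symbol and for 21 through a synonym, 16 had none, and 52 sites were not placed. Of 90 inner block edges, 86 lay on an exon edge of a coding transcript of the gene. A long exon has more than 400 nt, and a distance of 0 is a base that touches a junction. Shares of sites were compared by two-sided Fisher exact tests, adjusted by Benjamini-Hochberg over 9 comparisons, with 95% Wilson intervals for shares and Newcombe intervals for differences. Sites are not replicates, sites of a gene share an INPUT factor, and p-values over sites say nothing of the spread between mice. Positions and 50 nt windows of the same exons were counted in full, with no test. Another match in the genome is one on a main chromosome with 95% identity over 95% of the site, searched with a word size of 16 in BLAST+ 2.17.0. A site's own place was left out of the count only for sites in 1 exon block. The alternative without other genomic matches can therefore drop sites in more than 1 block that match only their own place. Python 3.11.15, NumPy 2.4.6, SciPy 1.17.1 and matplotlib 3.10.9 were used, and the scripts were tested on simulated data.

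Sites named are those with the 5 smallest p-values, the 5 most positive and the 5 most negative logFC values, those in the 3 longest first and 5 longest internal exons, in exons with 2 or more sites, the 2 junction-crossing sites with the smallest p-values, those in genes of the m6A machinery, and up to 3 per other gene list (exon junction complex and splicing, lipoprotein and lipid metabolism, insulin and glucose, chromatin regulators, genome stability, ubiquitin ligases, nuclear receptors and liver transcription factors). Any other site named was chosen after its values were seen. Alternatives were other sets of sites, transcripts, limits and motifs. The members, lists and tests were chosen with earlier results of these data known.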

Additional observations from a re-analysis of the deposited data

How the results depend on the processing

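Of 144 recalculations, 98 kept the direction and the side of the threshold (or, for a share, stayed within its interval); the others follow in percentage points. The excess of negative sites in long over short exons kept its direction under all 15 alternatives, from 2.20 to 42.4, and did not pass with an absolute logFC of at least 1 (4.71) or above 2 (2.20) or with a limit of 1000 nt (7.14). The junction difference by direction did not pass with an absolute logFC of at least 1 (-8.36) or above 2 (-7.30), at 50 nt (-12.3) or in long exons alone (-7.29). The negative share of first against internal exons did not pass with an absolute logFC of at least 1 (-5.37) or under 2 (-10.3), without other genomic matches (-13.1), in coding sequence (-11.5), without whole-number ratios (-18.1) or in exons of all coding transcripts (-9.65), and turned round in the 311 sites with the smallest p-values (1.98).
RRACH by direction passed unadjusted with 1 site per gene (16.3), an absolute logFC of at least 1 (21.5), the whole site in 1 exon (17.4), no whole-number ratios (24.2), the transcript of the longest coding sequence (15.8), merged exons (15.6) and internal exons (17.1). RRACH in first against internal exons passed with GGAC (24.2) and turned round with 1 site per gene (-0.947), an absolute logFC of at least 1 (-2.32), coding sequence (-11.1), no whole-number ratios (-2.92), exons of all coding transcripts (-1.79) and merged exons (-3.21). RRACH in long against short exons turned round in the 311 sites (-6.52) and with an absolute logFC under 2 (-0.236). Against last exons, RRACH passed without whole-number ratios (-11.3) and with DRACH (-9.77) and turned round in exons of all coding transcripts (0.318) and with GGAC (5.95), and the negative share turned round with an absolute logFC of at least 1 (1.33). The share above 2 turned round with an absolute logFC of at least 1 (0.162), in exons of all coding transcripts (0.248) and at 1000 nt (0.534).
The share of sites in long exons was 65.3% with the whole site in 1 exon, 45.6% in exons of all coding transcripts, 70.2% at 200 nt and 26.1% at 1000 nt, and the share near a junction was 33.2%, 54.4%, 27.1% at 50 nt and 59.2% at 200 nt. The cause was not tested for any of these. Whole-number ratios, exons of all coding transcripts and an absolute logFC above 2 were chosen after seeing the data.
The table has no value per mouse, so no mouse could be left out, the genotype test could not be refitted, and depth behind a site is unknown. No paired analysis was possible because the table holds no value per library, although INPUT and IP libraries share mouse numbers.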
